A study of Sus scrofa with 16 samples.

Results

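The extracellular matrix genes described here are TIMP1, TIMP2, MMP1, SPARC, DCN, FN1, POSTN, LUM and FBN1, 9 genes chosen by symbol. All 17 probe sets annotated with one of them were taken, of 23999 on the array. A probe set is a group of short probes, placed near the 3′ end of a transcript, that gives 1 value per array. Values are on a log2 scale after GCRMA, a method that corrects array signals for background and brings arrays to a common scale. Of the 17 probe sets 13 exceeded a log2 level of 5 on 4 or more of the 16 arrays and were tested, among 11538 tested in all, and each of the 9 genes kept at least 1 tested probe set.

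RNA came from small intestinal tissue of piglets of a Landrace x Large white x Duroc cross, born preterm by caesarean section at gestation day 105 to 2 sows. The study compared piglets given antibiotics with piglets given saline, and proximal with distal intestine, and its title names necrotizing enterocolitis as the disease of interest. All groups shared the preterm birth, parenteral nutrition with small enteral amounts until day 3, full tube feeding after that, and tissue collection at day 5. The antibiotics groups received ampicillin, gentamycin and metronidazole by mouth and into the muscle from birth, and the control groups received saline in place of them. There were 4 arrays each of antibiotics distal, control distal, antibiotics proximal and control proximal tissue. The number in each sample name, read as the piglet's, gives 9 piglets, 5 with antibiotics and 4 controls, and 7 of them had both segments. Arrays are named here by group and that number. The study had 24 piglets, and the labels do not say how these 9 were picked or which litter each came from.

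The extracellular matrix of the gut wall is a mesh of collagens, glycoproteins and proteoglycans, made mostly by fibroblasts and smooth muscle cells, on which epithelium, vessels and leukocytes rest. Matrix metalloproteinases are secreted enzymes that cut it, and tissue inhibitors of metalloproteinases bind their active site and stop them. In inflamed intestine stromal cells are known to raise metalloproteinases and TIMP1 in response to cytokines, while most structural components turn over slowly.

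The tissue label was checked against markers. The 13 tested epithelial markers, of 16 listed, had a mean log2 level of 12.53 to 13.40 on every array, and 10 smooth muscle markers had one of 10.15 to 11.22, so transcripts of both tissues were present in all samples. From 45.1% to 46.5% of probe sets exceeded that log2 level of 5 on each array, and arrays of one group correlated at r = 0.878 to 0.981 across the tested probe sets. Precision is limited by having 4 arrays a group. Unless a fit on piglet means or with a piglet block is named, p-values come from fits that treat arrays as independent. Because 7 piglets gave both segments, those p-values do not take account of the pairing of segments.

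In distal intestine TIMP1 and MMP1 fell with antibiotics, while none of the other 7 genes passed the test in either direction. Groups were compared with limma, which fits a linear model to every probe set and pools their spread, and p-values were adjusted over all tested probe sets. TIMP1 and MMP1 were the only 2 of 13 probe sets past an adjusted p of 0.05, both lower, against 2.12% of all tested probe sets and 1.1% lower. These were also the 2 members whose antibiotics arrays all lay below all control arrays, which held for 6.31% of tested probe sets. The median difference over the 13 probe sets was -0.24 on the log2 scale, beside 0.0036 over all tested probe sets, and 10 of 13 had lower means against 49.6% of all. In proximal intestine 0 of 13 passed (0.147% of all), with 2 at an unadjusted p under 0.05 against 12.9% of all. Members and lists were chosen with earlier results of these data known, so such shares, here and below, are descriptions only.

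**Figure D1:**
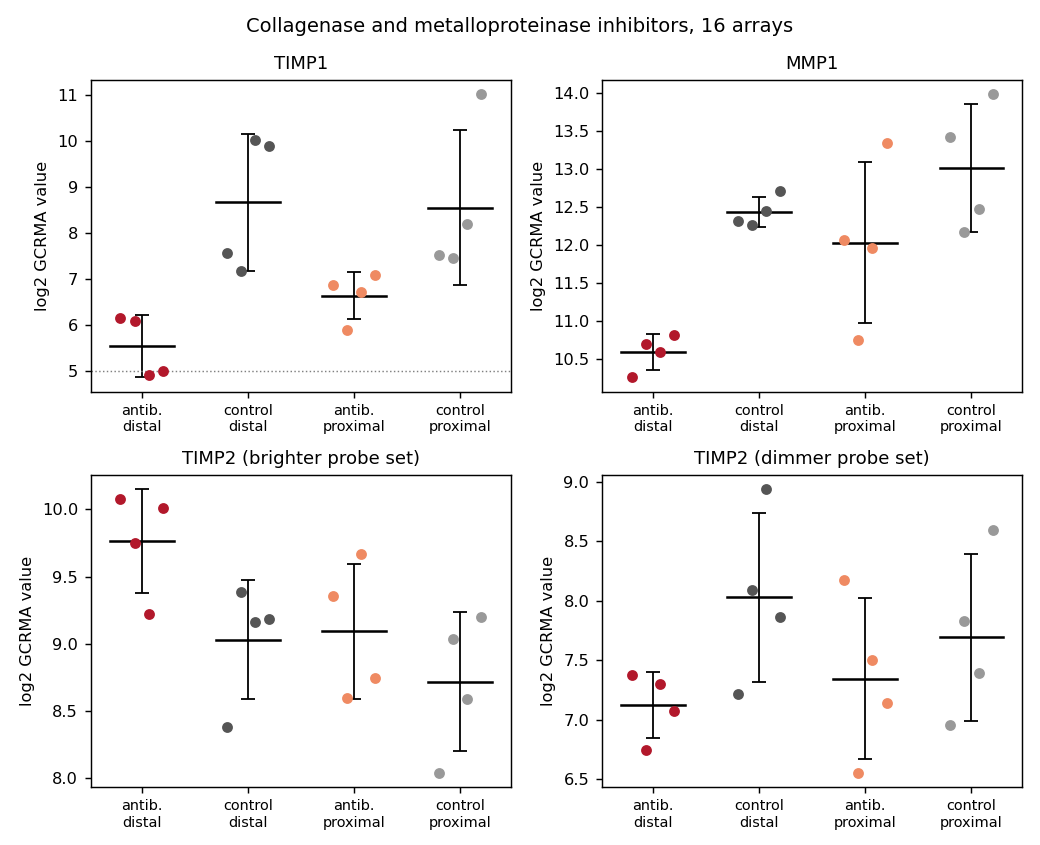
Log2 GCRMA values of TIMP1, MMP1 and the 2 tested TIMP2 probe sets, 1 panel each. Points are single arrays in the 4 groups, antibiotics left of control within a segment, and bars are group means with SD. TIMP1 lies between 4.90 and 6.15 on antibiotics distal arrays, below all control distal arrays, and the 2 TIMP2 probe sets lean opposite ways in distal tissue.

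TIMP1 encodes a secreted inhibitor of most metalloproteinases and was measured by a single probe set. Its log2 value was 6.15, 6.07, 4.90 and 5.00 on antibiotics distal arrays 85, 86, 87 and 95, against 7.57, 7.18, 10.02 and 9.88 on control distal arrays 83, 88, 89 and 92. The highest antibiotics array lay a full log2 unit below the lowest control array, and the controls themselves split into a lower and a higher pair. The means were 5.53 ± 0.67 in antibiotics distal and 8.66 ± 1.50 in control distal tissue (log2, SD, n = 4 each). TIMP1 fell by 3.13 on the log2 scale (SE 0.76, 95% interval -4.75 to -1.52, limma adjusted p = 0.0438), which is 8.77-fold lower. Antibiotics arrays 87 and 95 lay at or under the level of 5 used as the filter, where GCRMA values are compressed towards their floor of 2.14, so the size of the fold is less certain than its direction. Fewer cells of a type and less RNA per cell cannot be told apart in such tissue samples, for this and every other gene here.

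In proximal tissue TIMP1 was at 6.86, 5.89, 6.72 and 7.07 on antibiotics arrays 86, 87, 95 and 98, against 7.52, 7.44, 8.18 and 11.02 on control arrays 83, 88, 89 and 92. The groups did not overlap here either, as for 1.74% of tested probe sets with antibiotics lower, but the gap was narrow except for control array 92. The difference of -1.91 (SE 0.76, 95% interval -3.52 to -0.29) did not pass over all probe sets (limma adjusted p = 0.321, unadjusted p = 0.0235). Without control proximal array 92 it was -1.08 (limma adjusted p = 0.702). Over all 16 arrays TIMP1 spanned 6.12 log2 units, and its SD was larger than that of 98.2% of tested probe sets.

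MMP1 encodes interstitial collagenase, which cuts fibrillar collagens, and was also measured by a single probe set. In distal tissue it was at 10.26, 10.70, 10.60 and 10.81 on antibiotics arrays 85, 86, 87 and 95, against 12.31, 12.26, 12.45 and 12.70 on control arrays 83, 88, 89 and 92. Both groups were tight and lay well apart. The means were 10.59 ± 0.24 in antibiotics distal and 12.43 ± 0.20 in control distal tissue (log2, SD, n = 4 each). MMP1 fell by 1.84 on the log2 scale (SE 0.45, 95% interval -2.80 to -0.88, limma adjusted p = 0.0465), which is 3.58-fold lower. Its SE comes from a spread shared with the proximal groups, which varied more, and in a fit of the 8 distal arrays alone the limma adjusted p was 0.00239.

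In proximal tissue MMP1 was at 12.06, 10.75, 11.96 and 13.34 on antibiotics arrays 86, 87, 95 and 98, against 13.42, 12.17, 12.47 and 13.98 on control arrays 83, 88, 89 and 92. Antibiotics array 98 reached into the control range, and the other 3 antibiotics arrays lay below every control array. The difference of -0.98 (SE 0.45, 95% interval -1.94 to -0.02) did not pass (limma adjusted p = 0.38). It was -1.42 without antibiotics proximal array 98 and -0.56 without antibiotics proximal array 87, and passed in neither case (limma adjusted p = 0.102 and 0.587).

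The distal calls of TIMP1 and MMP1 lay close to the threshold. With 1 of the 8 distal arrays left out in turn, TIMP1 passed in 1 fit (without control distal array 88) and MMP1 in 0, with differences of -3.63 to -2.68 for TIMP1 and -1.91 to -1.73 for MMP1, and limma adjusted p up to 0.157 and 0.144. With the piglet as a random block the limma adjusted p was 0.0363 for TIMP1 and 0.052 for MMP1.

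**Figure D2:**
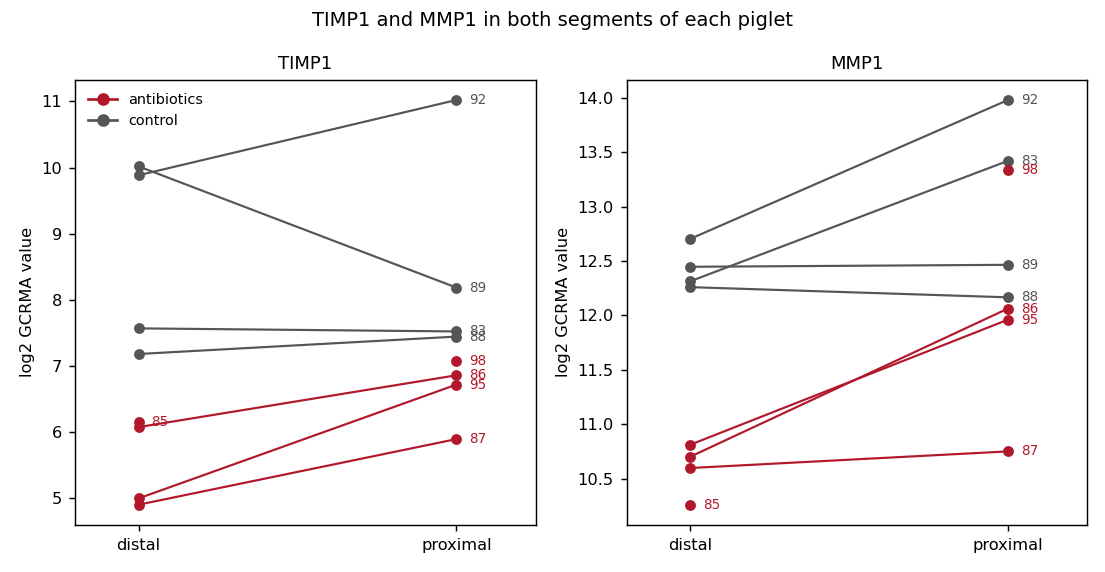
TIMP1 and MMP1 in distal (left) and proximal (right) tissue on a log2 GCRMA scale, with a line joining the segments of a piglet and single points for piglets with 1 segment. Antibiotics piglets are red and control piglets grey. For TIMP1 all 3 antibiotics lines run lower at the distal end, while control lines run both ways.

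For both genes the antibiotics difference was more negative in distal than in proximal tissue, but the difference between the segments' effects did not pass. It was -1.22 for TIMP1 (SE 1.07, limma adjusted p = 0.893) and -0.86 for MMP1 (SE 0.64, limma adjusted p = 0.882). Of the 13 probe sets 0 passed this test (0.191% of all), and 0 had an unadjusted p under 0.05 against 6.62% of all.

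Averaging both segments gave 1 value per piglet for 3 antibiotics and 4 control piglets. TIMP1 was at 6.47, 5.40 and 5.86 in antibiotics piglets 86, 87 and 95, against 7.54, 7.31, 9.10 and 10.45 in control piglets 83, 88, 89 and 92. MMP1 was at 11.38, 10.67 and 11.39 in the same antibiotics piglets, against 12.87, 12.21, 12.46 and 13.34 in the control piglets. For both genes all antibiotics piglets lay below all control piglets, as for 8.28% of tested probe sets. The differences of -2.70 for TIMP1 (SE 0.72) and -1.57 for MMP1 (SE 0.31) did not pass (limma adjusted p = 0.149 and 0.0835), and 0 of 13 probe sets did (0.347% of all).

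In the antibiotics piglets with both segments TIMP1 was lower in distal than in proximal tissue, with distal minus proximal differences of -0.78, -0.99 and -1.72 in piglets 86, 87 and 95, against 0.05, -0.26, 1.83 and -1.14 in control piglets 83, 88, 89 and 92. MMP1 had differences of -1.36, -0.15 and -1.15 in the antibiotics piglets, against -1.11, 0.09, -0.02 and -1.28 in the controls. For MMP1, 4 of 7 piglets, from both arms, were lower in distal tissue by more than 1 log2 unit, and the other 3 lay near 0. Over the groups, distal minus proximal was -1.44 for MMP1 with antibiotics (SE 0.45, limma adjusted p = 0.0854) and -0.58 in controls (95% interval -1.54 to 0.38, limma adjusted p = 0.884). For TIMP1 it was -1.11 with antibiotics (limma adjusted p = 0.518) and 0.12 in controls (limma adjusted p = 0.995). Between segments 0 of 13 probe sets passed with antibiotics (5.25% of all) and 0 in controls (0.364% of all). The MMP1 value with antibiotics changed with the arrays used: without antibiotics proximal array 87 it was -1.86 and passed (limma adjusted p = 0.0175), and with only the piglets that had both segments it was -0.89 (limma adjusted p = 0.323).

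TIMP2, an inhibitor that is usually made at a steady level and that also takes part in activating MMP2, had 2 tested probe sets that disagreed. The brighter one was at 10.07, 9.75, 9.22 and 10.01 on antibiotics distal arrays 85, 86, 87 and 95, against 8.38, 9.39, 9.16 and 9.19 on control distal arrays 83, 88, 89 and 92. The dimmer one was at 7.37, 6.75, 7.30 and 7.08 on the antibiotics distal arrays, against 7.22, 8.09, 8.94 and 7.87 on the control distal arrays. Antibiotics arrays leaned high at the first and low at the second, with overlap at both. The distal differences were 0.73 (95% interval 0.05 to 1.42) and -0.90 (95% interval -1.77 to -0.03), neither past the threshold (limma adjusted p = 0.276 and 0.293). Over the 16 arrays the 2 probe sets correlated at r = 0.16 (rho = 0.15), and their differences had the same sign in 1 of 6 comparisons, so no direction can be given for TIMP2. In proximal tissue the differences were 0.38 and -0.35 (limma adjusted p = 0.688 and 0.783).

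At their brightest probe sets the 6 structural and matricellular genes were bright in all groups. SPARC, a collagen-binding protein of remodelling matrix, averaged 13.30 ± 0.74 in antibiotics distal and 13.54 ± 0.39 in control distal tissue, and 13.52 ± 0.36 in antibiotics proximal and 13.60 ± 0.30 in control proximal tissue (log2, SD, n = 4 each). Its tested probe set was brighter than 97.8% of all tested. The distal difference of -0.24 (95% interval -0.94 to 0.46) became 0.12 without antibiotics distal array 95, which lay at 12.20 while the other 3 antibiotics distal arrays lay between 13.51 and 13.86.

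POSTN, periostin, a matricellular protein of fibroblasts that binds collagen, had the most negative distal difference of the brightest probe sets of these 6 genes. Its brighter probe set was at 11.65, 11.41, 12.34 and 11.47 on antibiotics distal arrays 85, 86, 87 and 95, against 11.93, 12.38, 12.45 and 12.24 on control distal arrays 83, 88, 89 and 92. Antibiotics array 87 lay inside the control range and the other 3 below it. The difference was -0.53 in distal tissue (95% interval -1.21 to 0.14, limma adjusted p = 0.457) and -0.08 in proximal tissue. The dimmer POSTN probe set averaged 5.72 over all arrays, with a lowest value of 3.84, and gave -0.24 and -0.59 in the same comparisons.

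DCN, decorin, is a small leucine-rich proteoglycan that binds collagen fibrils. It averaged 12.07 ± 0.14 in antibiotics distal and 12.36 ± 0.33 in control distal tissue, and 12.49 ± 0.68 in antibiotics proximal and 12.04 ± 0.29 in control proximal tissue (log2, SD, n = 4 each). The differences were -0.28 in distal tissue (95% interval -0.91 to 0.34) and 0.44 in proximal tissue (95% interval -0.18 to 1.06). LUM, lumican, a proteoglycan of the same family, averaged 11.55 ± 0.39 in antibiotics distal and 11.68 ± 0.70 in control distal tissue, and the difference was -0.13 in both segments (95% interval -0.94 to 0.68 in distal tissue).

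FN1, fibronectin, links cells to collagen through integrins. Its brighter probe set averaged 12.28 ± 0.49 in antibiotics distal and 12.39 ± 0.49 in control distal tissue (log2, SD, n = 4 each), a difference of -0.11 (95% interval -0.77 to 0.54). The dimmer one was at 8.31, 8.45, 9.74 and 7.92 on antibiotics distal arrays 85, 86, 87 and 95, against 7.48, 8.81, 8.27 and 6.95 on control distal arrays 83, 88, 89 and 92, a difference of 0.73 (95% interval -0.33 to 1.78). FBN1, fibrillin 1, the backbone of elastic microfibrils, averaged 11.14 ± 0.79 in antibiotics distal and 10.63 ± 0.46 in control distal tissue at its brighter probe set. That difference was 0.51 (95% interval -0.48 to 1.51), and 0.91 without antibiotics distal array 95. The dimmer FBN1 probe set averaged 6.13 over all arrays, with a lowest value of 4.12, and gave -0.30 in distal tissue.

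Over the brightest probe sets of these 6 genes the distal antibiotics differences lay between -0.53 and 0.51 and the proximal ones between -0.30 and 0.44 (limma adjusted p from 0.457 to 0.912 and from 0.569 to 0.952). Their 95% intervals reached from -1.21 to 1.51 in distal and from -0.96 to 1.21 in proximal tissue, so differences of a log2 unit in some of these genes were not detectable with 4 arrays a group. Between segments the differences were -0.41 to 0.35 with antibiotics and -0.07 to 0.33 in controls.

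**Figure D3:**
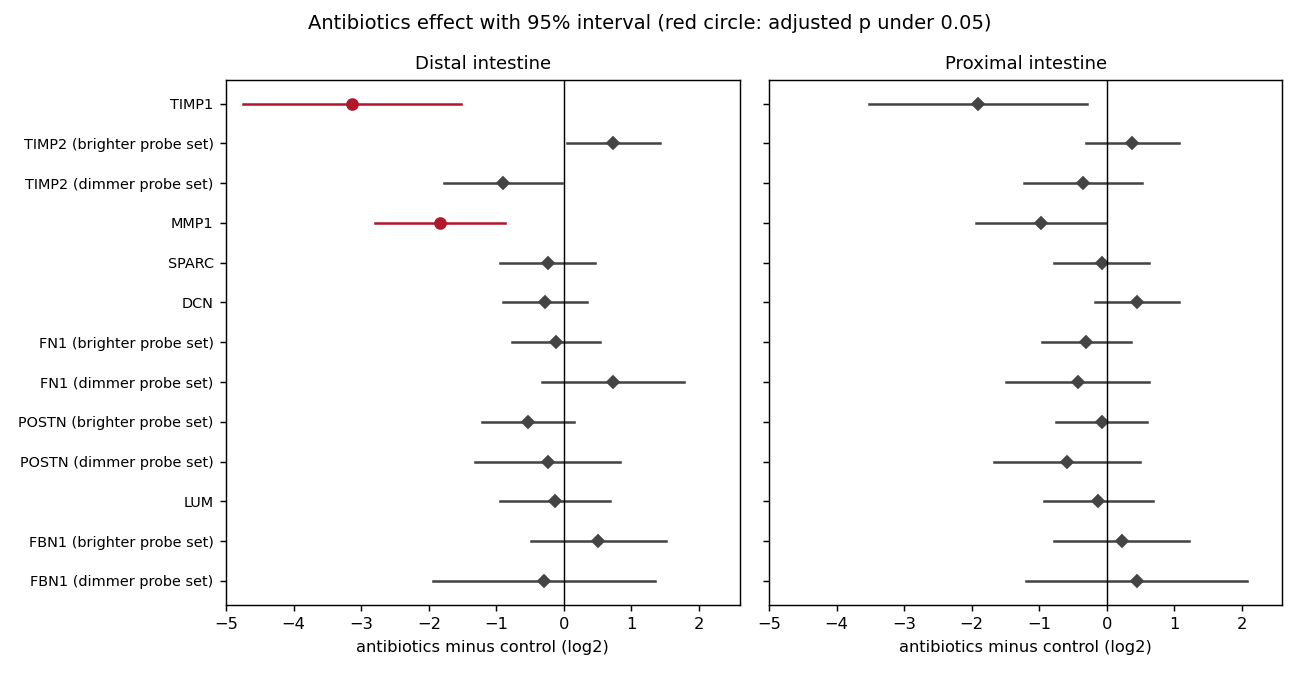
Antibiotics minus control on a log2 scale for the 13 tested probe sets, distal tissue left and proximal tissue right. Points are limma differences with 95% intervals, and a red circle marks an adjusted p under 0.05. In distal tissue the intervals of TIMP1 (-4.75 to -1.52) and MMP1 (-2.80 to -0.88) lie farthest below 0, and most others cover it.

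Some arrays lay at the edge of their group for many structural probe sets at once. Of the 9 tested probe sets, antibiotics distal array 95 was the lowest of its group for 5 and antibiotics distal array 87 the highest for 8. Control distal array 92 was the lowest of its group for 6, antibiotics proximal array 98 the highest for 6, and control proximal array 89 the highest for 6. Antibiotics distal array 95 also had the lowest mean of its group for fibroblast markers (8.28 against 8.88 at the most). It was lowest for smooth muscle markers too (10.15 against 10.81). Control distal array 92 was lowest for fibroblast markers alone (8.59), and antibiotics proximal array 98 highest for smooth muscle markers alone (10.84). Antibiotics distal array 87 (8.62 and 10.43) and control proximal array 89 (8.90 and 10.85) were the highest of their groups for neither. The part of these marker levels in the values above was not tested.

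**Figure D4:**
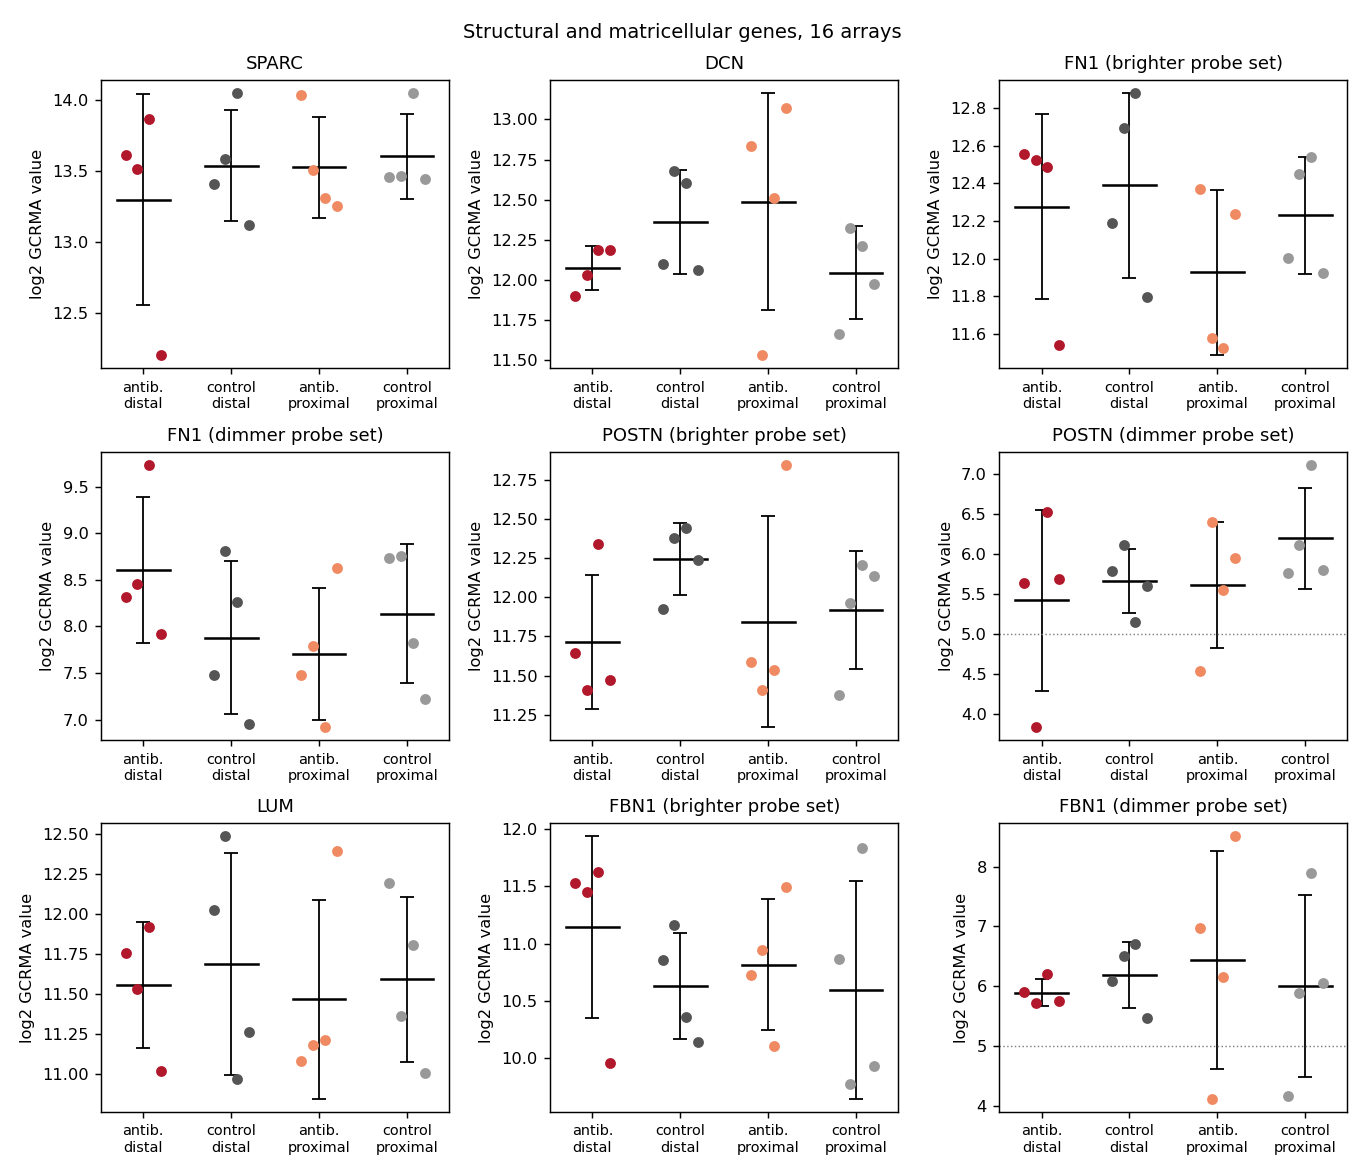
Log2 GCRMA values of the 9 tested probe sets of SPARC, DCN, FN1, POSTN, LUM and FBN1, 1 panel each. Points are single arrays in the 4 groups, antibiotics left of control within a segment, and bars are group means with SD. The groups overlap in every panel, for example in SPARC, where antibiotics distal array 95 at 12.20 is the lowest point.

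Probe sets of one gene agreed only in part. Over the 16 arrays, 7 pairs of which share a piglet, the 2 tested probe sets correlated at r = 0.56 for FN1, 0.37 for POSTN and 0.31 for FBN1 (rho = 0.57, 0.33 and 0.30). Their differences had the same sign in 3, 4 and 2 of 6 comparisons. The dimmer probe sets of POSTN and FBN1 exceeded the filter level on 14 of the 16 arrays each. The second probe sets of SPARC and DCN and 2 further ones of FN1 lay at the floor of 2.14 on all arrays, with 2.16 as the highest value, and were not tested.

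Among the members themselves, TIMP1 and MMP1 ran together over the 16 arrays (r = 0.77, rho = 0.84), and less so within groups (r = 0.51 after taking out group means). SPARC and FN1 (r = 0.69, within groups 0.80) and LUM and FBN1 (r = 0.66, within groups 0.73) ran together at least as closely within groups as across them. For TIMP1 and the brighter TIMP2 probe set r was -0.28, and 0.42 within groups. These are descriptions over arrays that in part share piglets.

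Of 4683 other genes, those most like TIMP1 over the 16 arrays were GADD45B, a stress-inducible signalling protein (r = 0.950), SERPING1, the C1 inhibitor (r = 0.920), and C1R, a protease of the classical complement pathway (r = 0.917). Most like MMP1 were GLUL, glutamine synthetase (r = 0.930), PPA1, an inorganic pyrophosphatase (r = 0.927), and HMGB2, a chromatin protein (r = 0.922). LUM was closest to CCPG1 (r = 0.947) and DPT, the matrix protein dermatopontin (r = 0.917), and FBN1 to GPX7 (r = 0.941). For TIMP2 the closest was SPINT2, an inhibitor of serine proteases (r = 0.902), for DCN it was AUH (r = 0.870), and for SPARC it was SMARCA2 (r = 0.841). For FN1 it was FKBP10, a collagen chaperone (r = 0.818), and for POSTN it was GMPS (r = 0.808).

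Other matrix genes were taken from 12 lists of 220 genes, of which 117 were on the array and 67 had a tested probe set. By the brightest probe set, 3 fell and 0 rose with antibiotics in distal tissue (4.48% against 2.12% of all tested), and 0 passed in proximal tissue. The median difference was -0.26 in distal and -0.24 in proximal tissue, beside 0.0036 and -0.066 over all tested probe sets. Lower means were found for 42 of 67 genes in distal tissue (49.6% of all tested probe sets) and for 46 of 67 in proximal tissue (56.8%).

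In distal tissue SRGN, the serglycin proteoglycan of leukocyte granules, fell by 2.34 (SE 0.39, limma adjusted p = 0.00484), with means of 10.42 ± 0.42 with antibiotics and 12.77 ± 0.14 in controls (log2, SD, n = 4 each). MGP, matrix Gla protein, an inhibitor of calcification, fell by 1.65 (SE 0.38, limma adjusted p = 0.033), with means of 11.63 ± 0.44 with antibiotics and 13.28 ± 0.17 in controls. These 2 of 67 genes also passed on piglet means (2.99% against 0.347% of all tested), at -2.14 for SRGN and -1.83 for MGP. Both had a limma adjusted p of 0.00764, and piglet means draw on distal arrays of the same piglets. In proximal tissue the differences of -1.37 for SRGN and -1.43 for MGP did not pass (limma adjusted p = 0.175 and 0.141). ETS2, a transcription factor that can act on metalloproteinase promoters, fell in distal tissue at 2 of its 3 probe sets, with differences of -1.59 and -1.42 (limma adjusted p = 0.0488 and 0.027), while the other gave -0.99 (limma adjusted p = 0.253).

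By role, the 4 measured metalloproteinases all had lower distal means (median -1.03), as against a median of 0.37 over 4 other inhibitors and 0.76 over 9 genes of plasminogen activation and cathepsins, with 0 called in these 3 lists. The 8 cytokines and transcription factors had a median of -1.54, the 4 proteoglycans -0.93, the 2 genes of elastic fibres -0.90, the 8 matricellular genes -0.58 and the 3 collagens -0.62. Medians nearer 0 were seen for the 5 basement membrane genes (-0.01), the 7 genes of collagen synthesis (0.12), the 4 of the TGF-beta group (-0.16) and the 9 receptors (-0.25). Of the 8 cytokines and transcription factors 6 had lower distal means. TNF, named although it did not pass, was at -0.31 (limma adjusted p = 0.468), against their median of -1.54. COL1A2, COL3A1, MMP2, MMP9, MMP13, MMP14, TIMP3 and TIMP4 were on the array but too dim to be tested, so the list of measured proteases and collagens is short.

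Between segments of antibiotics piglets 3 of the 67 genes passed by the brightest probe set, 2 higher and 1 lower in distal tissue (4.48% against 5.25% of all tested). SDC2, syndecan 2, a heparan sulfate proteoglycan, was higher in distal than in proximal tissue by 2.33 and 0.98 at its 2 probe sets (limma adjusted p = 0.00164 and 0.0386). CTSH, cathepsin H, was higher by 2.15, at 14.51 ± 0.22 in antibiotics distal and 12.36 ± 0.38 in antibiotics proximal tissue (log2, SD, n = 4 each, limma adjusted p = 0.00253). FBLN1, fibulin 1, was lower in distal tissue (difference -1.07, limma adjusted p = 0.0274). A dimmer probe set of LAMC1, the laminin gamma 1 chain, was higher by 1.63 (limma adjusted p = 0.0404), while its brightest probe set did not pass. The dimmer one averaged 5.49 in antibiotics proximal tissue, with a lowest value of 4.98, near the filter level. In control piglets 0 of the 67 passed between segments, but SDC2 and CTSH ran the same way there. At both SDC2 probe sets all control distal arrays lay above all control proximal arrays, as for 1.94% of tested probe sets. The medians were 9.94 in control distal and 8.51 in control proximal tissue at the brighter one, and 6.98 and 6.36 at the other. CTSH averaged 13.58 in control distal and 12.67 in control proximal tissue, with overlap. The control segments also overlapped for FBLN1 (means 6.68 distal and 6.85 proximal) and the LAMC1 probe set (5.69 and 5.596).

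Leukocyte markers were lower with antibiotics, as TIMP1 and MMP1 were in distal tissue. Of 25 listed, 10 were tested, and all 10 had lower means with antibiotics in both segments, against 49.6% of all tested probe sets in distal and 56.8% in proximal tissue. In distal tissue 6 of them fell, CD53, LCP1, CD163, S100A9, NCF1 and VAV1 (2.12% of all passed), and in proximal tissue S100A9 alone fell (0.147% of all passed; limma, adjusted over all probe sets). Their mean log2 level was 5.24 to 6.44 on antibiotics distal arrays and 7.84 to 8.43 on control distal arrays, and 5.91 to 7.04 on antibiotics proximal and 7.35 to 8.68 on control proximal arrays, with no overlap in either segment. Testing needed a level above 5 on only 4 arrays, so markers high in controls alone could be tested, and NCF1 reached 5.83 at most. The shares of leukocyte markers are thus descriptions only. The defining markers PTPRC, CD14 and CD3E were near the floor on all arrays (highest 2.66, 2.34 and 2.32). Of fibroblast markers 6 of 10 were tested and 0 passed in either segment, with mean levels of 8.28 to 8.88 on antibiotics distal and 8.59 to 9.40 on control distal arrays, which overlapped. All 6 had lower means with antibiotics in distal tissue (median difference -0.39) and 4 in proximal tissue. Lower distal means were also found for 8 of 10 smooth muscle, 11 of 13 epithelial, 4 of 5 endothelial and 5 of 6 nerve and glia markers. None of these passed in distal tissue, and the leukocyte median was -1.64. The part of leukocyte and fibroblast markers in the values of TIMP1, MMP1 and SRGN was not tested. The 5′ minus 3′ difference of control probe sets, a sign of RNA quality, averaged -4.22 in antibiotics distal and -3.98 in control distal tissue (two-sided exact permutation p = 0.457, where the smallest possible is 0.0286). With it as a covariate the distal differences were -3.11 for TIMP1 and -1.74 for MMP1, against -3.13 and -1.84 without it. Neither gene passed with the covariate (limma adjusted p = 0.0581 and 0.0611), and a part of RNA quality was not tested beyond this.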

How the data were processed

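Total RNA was measured on Affymetrix porcine arrays. GCOS 1.2, GCRMA and limma are named in the submitters' processing notes, and their order, their settings and a genome build are not. The authors deposited log2 GCRMA values, 1 per probe set and array, with a floor at 2.14, and 39.7% of them lay under 2.5. Of 24123 probe sets 124 controls were left out. GEO's platform annotation gave 1 gene for 10069, several for 198 and none for 13732, and 9961 of the 10069 Entrez identifiers were found in the RefSeq gene table.

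Group means were fitted over all 16 arrays, or over 1 mean per piglet, with limma 3.58.1 (lmFit, eBayes) in R 4.3.3, with Benjamini-Hochberg adjustment over 11538 probe sets. The fit was tested on simulated data. The brightest probe set has the highest mean over all arrays. Numbers in the sample names were read as piglets. Residuals of the 2 segments of a piglet correlated at 0.0293 to 0.526, over 0.1 for 5 of 7. The piglet as a random block used duplicateCorrelation (statmod 1.5.0, correlation 0.172). Alternatives covered the filter, the scaling, array weights, the threshold, the arrays fitted, the block, a covariate for RNA quality, one for the position between segments, and each array left out. Figures used matplotlib 3.10.9 in Python 3.11.15.

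Named are all probe sets of the 9 genes, list genes past the threshold (at most 6 per list and comparison) and up to 3 genes most like each member. Besides these, TNF and MMP3, which did not pass, and some untested list and marker genes are named. Members, lists and tests were chosen with earlier results of these data known.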

Additional observations from a re-analysis of the deposited data

Results flagged for a closer look

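Among the 13 tested probe sets in 4 groups, 52 sets of 4 values were examined for 1 array that stood apart from the other 3, and 5 were found, against about 1 in 20 by chance. SPARC was at 14.05 on control proximal array 89, with 13.46 as the next value. The brighter FN1 probe set was at 11.54 on antibiotics distal array 95, with 12.49 next, and the brighter FBN1 probe set was at 9.96 on the same array, with 11.45 next. The brighter POSTN probe set was at 12.85 on antibiotics proximal array 98, with 11.59 next, and LUM was at 12.39 on that array, with 11.21 next. TIMP1, TIMP2, MMP1 and DCN had no such array in any group.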

How the results depend on the processing

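Of 2120 alternative values for single probe sets, 1955 kept their sign and their side of the threshold, 30 lost and 11 gained the threshold, 124 were sign changes of differences that had not passed, and 0 called differences changed sign. Most of the 2120 belong to differences that had not passed. All 30 losses were of the distal differences of TIMP1 and MMP1, the only called ones. The distal count of 2 called probe sets became 0 without a filter, with only piglets with both segments, and with the RNA quality covariate (5′ minus 3′), and 1 with the piglet as a random replicate block. It was 3 with array quality weights, where the brighter TIMP2 probe set also passed, higher with antibiotics (0.86, limma adjusted p = 0.0394), and with 1 array left out it lay between 0 and 2. In the first 4 of these settings the distal adjusted p was 0.15, 0.0863, 0.0581 and 0.0363 for TIMP1, and 0.139, 0.0602, 0.0611 and 0.052 for MMP1, in the same order of settings. TIMP1 stayed between -3.34 and -2.77 over the 12 alternatives other than a left-out array and passed in 9, and MMP1 between -1.89 and -1.73 and passed in 8. With 1 of all 16 arrays left out, TIMP1 passed in 4 fits (without control proximal 88 or 92, antibiotics proximal 87 or control distal 88) and MMP1 in 5 (without control proximal 88, 89 or 92 or antibiotics proximal 87 or 98). The cause was not tested. The proximal count of 0 became 1 with array quality weights and stayed 0 (0 to 0) with 1 array left out. Distal against proximal with antibiotics gave 3 with array quality weights, 1 at an adjusted p of 0.10, and 0 to 1 with 1 array left out. Piglet means gave 2 with array quality weights, 1 at an adjusted p of 0.10, and 0 to 1 with 1 piglet left out (1 without control piglet 88). The number of called probe sets over the whole array in distal tissue was 245, and 138 without a filter, 143 with the mean of a gene's probe sets, 159 with only piglets with both segments, 430 with only the distal arrays, 478 at an adjusted p of 0.10, 1665 with array quality weights, and 106 to 353 with 1 array left out. Over the alternatives other than a left-out array it was 0 to 951 in proximal tissue (17 in the main setting), 9 to 210 for the difference of effects (22), 1 to 3008 between segments with antibiotics (606), 0 to 80 between segments in controls (42) and 1 to 922 on piglet means (40). With the piglet as a fixed effect 0 members passed in the comparisons it allows, as without it. The low values of TIMP1 near the filter level make the size of its fold uncertain, and 4 arrays a group limit the precision of the TIMP1 and MMP1 folds.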

Other observations

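MMP3 and MMP7, metalloproteinases that are no members and were picked after their values were seen, were high on some control arrays. MMP3, stromelysin 1, was at 6.75, 7.12, 6.73 and 6.60 at its brighter probe set on antibiotics distal arrays 85, 86, 87 and 95, against 9.20, 7.80 and 9.43 on control distal arrays 83, 88 and 89, with control distal array 92 higher still. In proximal tissue it was at 4.83, 2.51, 3.44 and 7.67 on antibiotics arrays 86, 87, 95 and 98, against 10.11, 5.57, 5.97 and 9.82 on control arrays 83, 88, 89 and 92. The groups did not overlap in distal tissue and did in proximal tissue, where antibiotics array 98, the highest antibiotics array for MMP1, lay above 2 control arrays. The differences of -2.31 and -3.26 did not pass (limma adjusted p = 0.312 and 0.225). Antibiotics proximal values of 2.51, 3.44 and 4.83 lay under the filter level, so the size of the proximal difference is uncertain. The dimmer tested MMP3 probe set lay at 3.24 to 3.52 on antibiotics distal and 4.32 to 7.62 on control distal arrays. Its groups overlapped in proximal tissue. MMP7, matrilysin, which Paneth cells make in mice, was not tested: it lay at 9.15 and 5.45 on control proximal arrays 92 and 83, and at 2.24 or lower on the other 14 arrays. Those 2 arrays were also the highest controls for MMP3 and MMP1 in proximal tissue.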
